A study of Mus musculus with 9 samples.

Results

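Coch encodes cochlin, a secreted extracellular matrix protein. It was picked from earlier results of the same counts because its level was higher in both Zfp423 mutants than in wild type, and more so in d28-30 than in d9-20. It is 1 of 48587 genes in the deposited count table and 1 of 15695 that were tested, and it was measured in all 9 libraries. Because its differences between genotypes chose it, they are given below with their errors and without a test.

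Cochlin carries an LCCL domain at its N-terminal end, followed by a pair of von Willebrand factor A domains, which in other matrix proteins bind collagens. It is best known as an abundant protein of the inner ear, where missense variants of the human gene cause a dominant form of hearing loss with vestibular disease. Zfp423 encodes a transcription factor whose zinc fingers bind DNA and also contact partner proteins, among them SMAD proteins of the BMP pathway and EBF factors. Human and mouse mutants of this gene have defects of the cerebellar midline.

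RNA was sequenced from hindbrains of untreated C57BL/6N mouse embryos on embryonic day 9.5 (E9.5). The study, by its title, asks how ZFP423 acts in early patterning of the hindbrain choroid plexus and in the formation of multiciliated cells there. The d28-30 embryos lack exons 6 and 7 of Zfp423, which takes zinc fingers 28 to 30 out of the protein. The d9-20 embryos lack exon 4, which takes out zinc fingers 9 to 20. The wild-type (wt) embryos were littermates, with no statement of which mutant line they came from. Each genotype had 3 libraries. The labels do not say whether a library holds 1 embryo or several, how many copies of the allele the mutants carried, or which libraries share a litter.

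Library totals were 16903382 to 24216412 counts, which makes 3 counts worth 0.126 to 0.177 CPM, the usual count rate relative to the TMM-scaled library size. Replicate 2 of d28-30 stood apart: chi-square per degree of freedom between it and any other library was 25 to 58.8, against at most 17.1 between the remaining libraries, and mitochondrial transcripts took 2.07% of its counts, against 0.904% to 1.42% elsewhere. The female transcript Xist and Y-linked genes were both plainly present in replicate 2 of each genotype, and the sexes were not balanced between genotypes. In each mutant, replicate 1 had Xist and almost no Y-linked reads and replicate 3 the reverse, so these libraries hold different embryos. Zfp423 itself had 159, 171 and 183 CPM in d28-30, 155, 156 and 194 CPM in d9-20, and 101, 105 and 118 CPM in wt. Zfp423 rose, with log2 fold changes of 0.67 ± 0.10 (SE; adjusted p = 0.0257) in d28-30 and 0.64 ± 0.10 (adjusted p = 0.0360) in d9-20, by edgeR's quasi-likelihood test with Benjamini-Hochberg adjustment. These calls were lost in 8 and 9 of 17 alternative settings, with adjusted p up to 0.173 in d28-30 and up to 0.25 in d9-20. Each wt library, replicates 1 and 3 of d28-30 and replicates 1 and 2 of d9-20 ended both calls when left out, and replicate 3 of d9-20 ended the call in d9-20. Gene-level counts do not show which exons the reads came from.

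Coch lies on chromosome 12 of GRCm38, from 51593341 to 51605771 on the plus strand (ENSMUSG00000020953.17). Its exons cover 2998 nt in GENCODE M21 and no other annotated gene overlaps it. Of its 4 annotated transcripts, Coch-202 with 11 exons and Coch-201 with 12 exons both have a coding sequence of 1656 nt, enough for 552 amino acids, and Coch-203 and Coch-204 are retained introns. The stretch just upstream of the gene is shown because members of the EBF family, partners of ZFP423, bind sites with the core CCCNNGGG, and this core occurs in it. The sequence is the plus strand from RefSeq (GRCm38.p6), chr12:51593091-51593282, ending before the first base of any RefSeq Coch transcript, and the capitals mark the 2 overlapping matches to CCCNNGGG.
Coch upstream: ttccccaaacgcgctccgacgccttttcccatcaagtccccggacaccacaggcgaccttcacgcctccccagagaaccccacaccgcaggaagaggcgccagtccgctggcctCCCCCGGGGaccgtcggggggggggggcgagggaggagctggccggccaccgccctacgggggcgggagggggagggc

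This window of 192 bases is 74% G and C with 18 CpG dinucleotides. It has more G and C than 95.7% of the 32512 promoter windows of the same length in the RefSeq table, whose median is 51.6%. All windows were cut at the same distance from a listed start site and stop short of it. For Coch that site is 51593341, while the first RefSeq transcript begins at 51593283, directly after the window. The matches to CCCNNGGG lie at chr12:51593205-51593212 and chr12:51593206-51593213, and 9.03% of all windows hold at least 1 match when both strands are searched. The fixed letters of this core are all G or C. That share is not limited to windows as rich in G and C as this one, which were not counted apart. GCACCC, the core of each arm of the palindromic site described for the rat orthologue of ZFP423, has no match on either strand, and 10.6% of windows have one. GTCTAGAC, a palindrome bound by SMAD proteins, and TATAAA, the TATA box, also have no match, against 0.148% and 8.75% of all windows. The bases between a window and its listed start site were not searched, so a TATA box there would be missed. These are matches of letters and not measured binding.

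Coch was highest in d28-30, intermediate in d9-20 and lowest in wt, with no overlap between any pair of genotypes. The d28-30 libraries held 395, 737 and 553 reads of Coch, which after scaling were 23.2, 31.0 and 24.4 CPM. The d9-20 libraries held 299, 274 and 327 reads, or 15.1, 13.8 and 15.4 CPM. The wt libraries held 65, 69 and 57 reads, or 2.98, 3.46 and 2.93 CPM. Within a genotype the highest library was 1.33 times the lowest in d28-30, 1.11 times in d9-20 and 1.18 times in wt. Replicate 2, the library that stood apart, was the highest of d28-30.

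**Figure D1:**
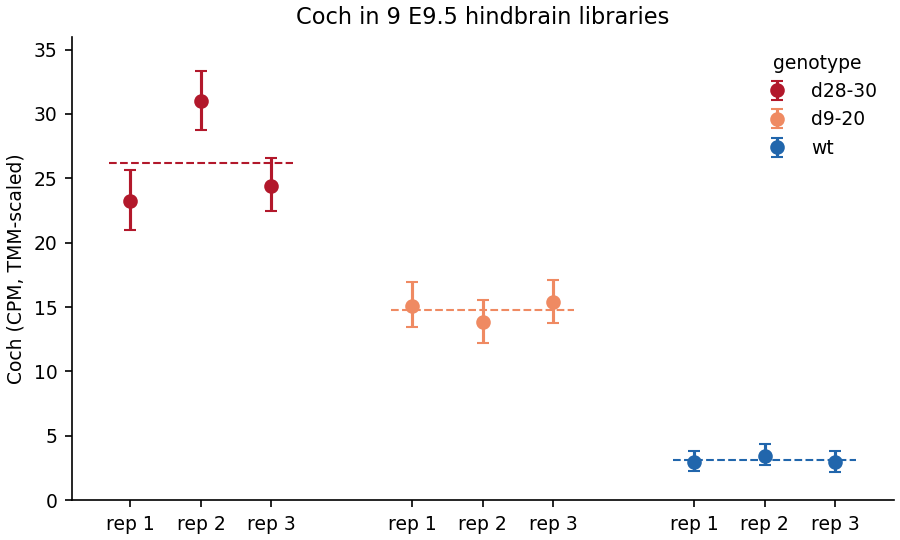
Coch level in CPM (y axis) in each of the 9 libraries, grouped as d28-30, d9-20 and wt along the x axis; bars on the points are exact 95% counting intervals and dashed lines are genotype means. The d28-30 libraries lie at 23.2 to 31.0 CPM, those of d9-20 at 13.8 to 15.4 CPM and those of wt at 2.93 to 3.46 CPM.

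Counting error was small beside these differences. The exact (Clopper-Pearson) 95% intervals, which cover counting error only, ran from 21.02 to 33.3 CPM over the d28-30 libraries, from 12.2 to 17.1 CPM over those of d9-20 and from 2.22 to 4.38 CPM over those of wt. No interval of a library reached into that of a library of another genotype. The coefficient of variation between libraries was 15.9% in d28-30, where counting alone would give 4.22%. It was 5.65% in d9-20 and 9.43% in wt, where counting alone would give 5.77% and 12.5%.

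The mean level of Coch was 26.2 ± 4.17 CPM in d28-30, against 14.8 ± 0.834 CPM in d9-20 and 3.12 ± 0.295 CPM in wt; errors of means are SD over 3 libraries here and below. The log2 fold change was 3.07 ± 0.14 (SE) in d28-30 against wt, an 8.40-fold higher level. It was 2.24 ± 0.14 in d9-20 against wt, 4.72-fold higher. Between the mutants, d28-30 was above d9-20 by 0.83 ± 0.12, or 1.78-fold. Both comparisons with wt use the same wt libraries, so an error in those would move both values together.

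The reads summed over each genotype gave nearly the same folds. There were 1685 reads in d28-30, 900 in d9-20 and 191 in wt. Each sum was set against the total counts of its libraries, without TMM scaling. The ratio was then 8.47 (95% interval 7.29 to 9.89) for d28-30 over wt, 4.70 (4.02 to 5.53) for d9-20 over wt and 1.80 (1.66 to 1.95) for d28-30 over d9-20. These intervals cover counting error only and leave out the spread between libraries, which in d28-30 was larger. Taking single libraries, the fold was 6.71 to 10.6 over the pairs of d28-30 with wt libraries, 3.99 to 5.25 over the pairs of d9-20 with wt, and 1.51 to 2.24 over the pairs of d28-30 with d9-20. In whole tissue, more cells that use Coch and more Coch RNA per cell cannot be told apart.

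The d28-30 library that stood apart carried part of the step between the mutants. Without it, Coch was 2.93 ± 0.11 above wt in d28-30 and 0.69 ± 0.10 above d9-20 on the log2 scale, the lowest values among 17 alternative settings. Over all of these settings the log2 fold change was 2.93 to 3.14 in d28-30 against wt, 2.19 to 2.32 in d9-20 against wt and 0.69 to 0.90 between the mutants. With the level of Y-linked genes as a covariate, the values were 3.09, 2.27 and 0.83 for the same comparisons.

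Per length of exon, Coch ranked differently among genes in each genotype. Its level was 8.75 ± 1.39 RPKM (CPM per kilobase of exon) in d28-30, 4.93 ± 0.278 RPKM in d9-20 and 1.04 ± 0.0982 RPKM in wt. Among 15239 tested genes with a length, it stood above 62.1% in d28-30, 49.2% in d9-20 and 23.3% in wt. The median gene had 5.195, 5.11 and 5.12 RPKM in d28-30, d9-20 and wt. Coch was thus a gene of below-median level in wt, near the median in d9-20 and above it in d28-30.

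Coch was picked for its differences, so their rank among all genes is a description and carries no weight. Against the whole transcriptome the differences from wt were large. In d28-30 against wt, 5 genes had a larger log2 fold change, and among genes with a mean of at least 1 CPM in 1 of the 2 genotypes these were R3hdml, Slc38a8 and the pseudogene Tdpx-ps1. In d9-20 against wt, 7 genes had a larger one, and those at 1 CPM or more included Slc38a8 and Tdpx-ps1. Between the mutants 190 genes had a larger log2 fold change, of which 91 had a mean of at least 1 CPM over all libraries. The median absolute log2 fold change over all genes was 0.13 in d28-30 and 0.07 in d9-20 against wt, and 0.13 between the mutants. In the same order, 99% of genes lay below 0.97, 0.94 and 1.02. The 0.83 of Coch between the mutants was below the last of these limits.

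**Figure D2:**
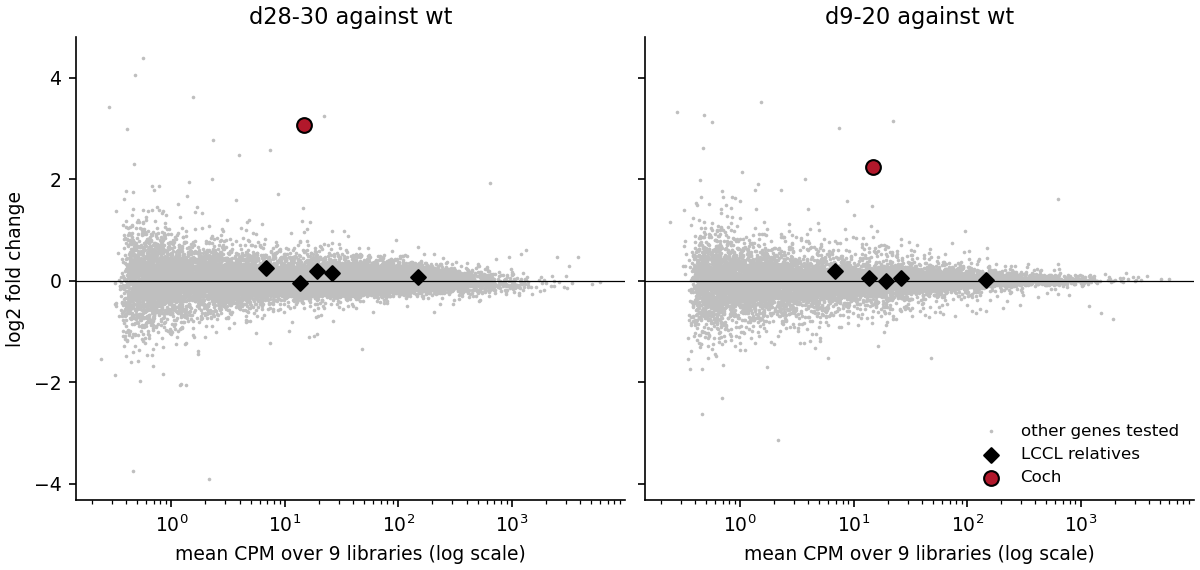
Log2 fold change against wt (y axis) by mean level in CPM on a log axis (x axis) for the 15695 tested genes, with d28-30 in the left panel and d9-20 in the right panel. Coch lies at 3.07 in d28-30 and 2.24 in d9-20, and its 5 relatives with an LCCL domain lie between -0.04 and 0.26.

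Calls were few, so the comparisons give a sparse background. A lack of calls in a short list of genes is therefore usual and says little about its members. At an adjusted p under 0.05, 25 genes (0.159%) passed in d28-30 against wt and 26 genes (0.166%) in d9-20 against wt. No gene (0%) passed between the mutants with edgeR's quasi-likelihood test, where 1504 had an unadjusted p under 0.05, DESeq2 called 79 and limma-voom 0. With the number in the library titles as a block, the call counts were 48 in d28-30 against wt, 55 in d9-20 against wt and 2 between the mutants. The absence of overlap that Coch showed is common among genes when n is 3: the mutant libraries all lay above all wt libraries for 6.63% of genes in d28-30 and 5.99% in d9-20, and d28-30 lay above d9-20 for 8.19%. The complete step of d28-30 above d9-20 above wt, without overlap, held for 33 genes (0.21%). Coch was picked for this order, so its place among the 33 genes carries no weight.

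The genes around Coch on chromosome 12 did not pass the test in either mutant. Of the 5 nearest protein-coding genes on each side, 9 were tested. Against wt, 0.159% of all genes were called in d28-30 and 0.166% in d9-20. None of these 9 neighbours was called in any comparison or in any of the 17 alternative settings. Their median log2 fold change was 0.07 in d28-30 against wt and -0.02 in d9-20 against wt, where that of all genes was 0.00 in both. Strn3, which encodes a subunit of the striatin phosphatase complex, is the nearest neighbour, 3.86 kb past the end of Coch on the opposite strand. It had 112, 151 and 104 CPM in d28-30, 111, 104 and 96.1 CPM in d9-20, and 117, 112 and 86.6 CPM in wt. Its genotypes overlapped, with log2 fold changes of 0.22 ± 0.15 (adjusted p = 0.623) in d28-30 and -0.02 ± 0.15 (adjusted p = 1) in d9-20.

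Prkd1, which encodes a protein kinase D and lies 944 kb before Coch, had 18.6, 19.7 and 17.1 CPM in d28-30, 18.4, 15.5 and 15.6 CPM in d9-20, and 13.1, 15.4 and 13.3 CPM in wt. All mutant libraries were above all wt libraries, as for 6.63% of genes in d28-30 and 5.99% in d9-20. The lowest d9-20 library was at 15.48 CPM and the highest wt library at 15.41 CPM. The log2 fold change of Prkd1 was 0.41 ± 0.11 in d28-30 (adjusted p = 0.346) and 0.25 ± 0.11 in d9-20 (adjusted p = 0.839). Other neighbours are Scfd1 and G2e3 before Coch, and Ap4s1, Heatr5a and Dtd2 after it. The log2 fold changes of these 5 genes were between -0.03 and 0.35 in d28-30 and between -0.10 and 0.08 in d9-20.

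**Figure D3:**
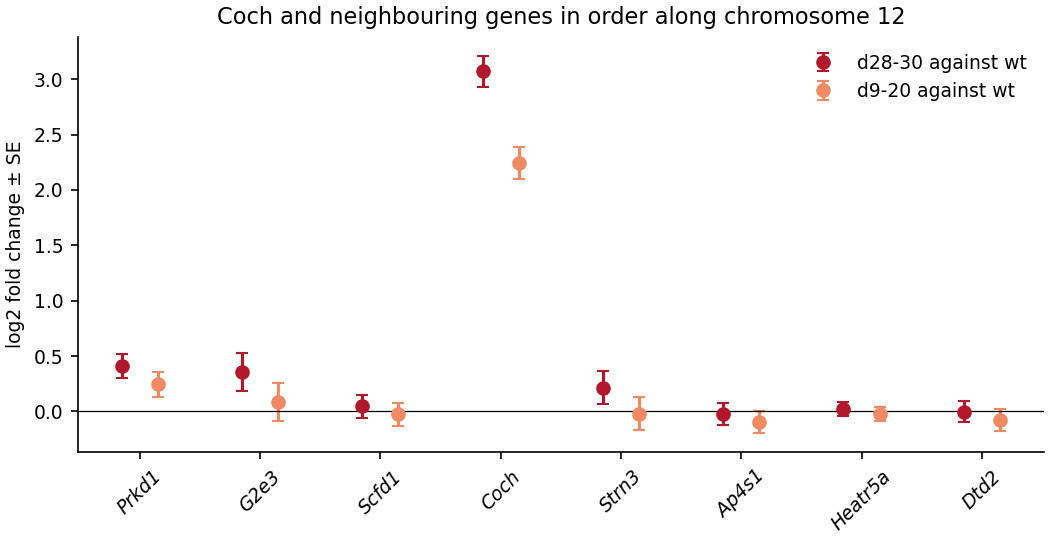
Log2 fold change against wt with its SE (y axis) for Coch and 7 of its tested neighbours in chromosomal order (x axis), with d28-30 and d9-20 as separate points. Coch is at 3.07 in d28-30 and 2.24 in d9-20, and no neighbour shown is above 0.41 in either mutant.

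The closest relatives of cochlin share its LCCL domain. Against wt, 0.159% of all genes were called in d28-30 and 0.166% in d9-20, so 0 calls is usual for a list this short. The 5 relatives measured were Vit, Crispld1, Crispld2, Dcbld1 and Dcbld2, and 0 of 5 were called in any comparison or in any of the 17 alternative settings. Their median log2 fold change was 0.16 in d28-30 against wt, 0.05 in d9-20 against wt and 0.07 between the mutants. Vit, for vitrin, has the same arrangement of an LCCL domain and a pair of von Willebrand factor A domains as cochlin, and lies on chromosome 17. It had 13.8, 12.4 and 13.4 CPM in d28-30, 15.2, 14.0 and 13.2 CPM in d9-20, and 14.5, 13.6 and 12.5 CPM in wt. The genotypes overlapped, with log2 fold changes of -0.04 ± 0.10 (adjusted p = 0.896) in d28-30 and 0.06 ± 0.10 (adjusted p = 1) in d9-20.

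Crispld1 and Crispld2 encode secreted proteins with LCCL and CRISP domains. Crispld1 averaged 20.8 ± 1.90 CPM in d28-30, 18.3 ± 0.474 CPM in d9-20 and 18.3 ± 3.69 CPM in wt. Crispld2 averaged 7.32 ± 0.667 CPM in d28-30, 6.96 ± 1.30 CPM in d9-20 and 6.12 ± 1.52 CPM in wt. In both genes the difference between mutant and wt means was smaller than the SD of the wt libraries. Dcbld1 and Dcbld2 encode membrane proteins with LCCL and CUB domains, and Dcbld1 had log2 fold changes of 0.16 ± 0.08 (adjusted p = 0.610) in d28-30 and 0.05 ± 0.08 (adjusted p = 1) in d9-20. For Dcbld2 they were 0.08 ± 0.07 and 0.02 ± 0.07 in the same order of mutants.

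Coch ranked behind Dcbld2 in both mutants and last of the 6 family members in wt. In d28-30, Dcbld2 had 18.2 RPKM, Coch 8.75, Crispld1 4.61, Vit 4.09, Dcbld1 3.82 and Crispld2 1.53 RPKM. In d9-20, Dcbld2 had 17.5 RPKM, Coch 4.93, Vit 4.37, Crispld1 4.06, Dcbld1 3.55 and Crispld2 1.46 RPKM. In wt, Dcbld2 had 17.2 RPKM, Vit 4.196, Crispld1 4.06, Dcbld1 3.42, Crispld2 1.28 and Coch 1.04 RPKM. The wt levels of Crispld2 (± 0.319) and Coch (± 0.0982) lay within 1 SD of each other, as did those of Vit and Crispld1.

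Matrix genes that encode von Willebrand factor A domains, as Coch does, were measured as a wider group. Of 18 such genes, 13 were tested, and 0 were called in either mutant, against 0.159% of all genes in d28-30 and 0.166% in d9-20. Their median log2 fold change was -0.04 in d28-30 against wt and 0.00 in d9-20 against wt. The members with the highest mean over all libraries were the collagen genes Col12a1, Col7a1 and Col22a1, with 26.9, 18.6 and 17.7 CPM in d28-30, 24.1, 24.3 and 19.2 CPM in d9-20, and 26.4, 15.2 and 19.2 CPM in wt, in that gene order. Col6a3, a collagen VI chain singled out after its values were seen, averaged 4.01 ± 0.444 CPM in d28-30, 2.73 ± 1.06 CPM in d9-20 and 6.83 ± 0.503 CPM in wt. Its log2 fold change was -0.77 ± 0.22 (adjusted p = 0.370) in d28-30 and -1.32 ± 0.23 (adjusted p = 0.0617) in d9-20, opposite in sign to Coch, and it passed in d9-20 in 6 of the 17 alternative settings, where the block gave an adjusted p of 0.0327. Col7a1, in the direction of Coch, had log2 fold changes of 0.28 ± 0.19 (adjusted p = 0.623) in d28-30 and 0.68 ± 0.19 (adjusted p = 0.363) in d9-20. It passed in d9-20 without the low-count filter (adjusted p = 0.0191) and without replicate 2 of d28-30 (adjusted p = 0.0371).

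Proteins described as binding or processing cochlin showed no call either. They are type II collagen (Col2a1), the aggrecanase genes Adamts4 and Adamts5 with their relative Adamts1, the choline transporter-like gene Slc44a2, the potassium channel gene Kcnk2 and the annexin gene Anxa2. Against wt, 0.159% of all genes were called in d28-30 and 0.166% in d9-20. All 7 were tested and 0 were called in any comparison or alternative setting. Their median log2 fold change was -0.08 in d28-30 against wt and -0.02 in d9-20 against wt. Col2a1, the most abundant, had 637, 503 and 671 CPM in d28-30, 706, 662 and 789 CPM in d9-20, and 600.2, 656 and 676 CPM in wt. Its genotypes overlapped, with log2 fold changes of -0.09 ± 0.11 (adjusted p = 0.743) in d28-30 and 0.16 ± 0.11 (adjusted p = 1) in d9-20.

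The inner ear forms beside the hindbrain at this age, so markers of the otic vesicle were read next to Coch. All 12 markers were tested and 0 were called in any of the 3 comparisons, where at most 0.166% of all genes were called. Their median log2 fold change was -0.02 in d28-30 against wt, 0.04 in d9-20 against wt and -0.28 between the mutants. Their summed level was 168, 200.1 and 194 CPM in d28-30, 199.9, 191 and 190.2 CPM in d9-20, and 171, 189 and 160 CPM in wt. The sums of d28-30 overlapped those of wt, and those of d9-20 were just above. Oc90, which encodes the main otoconial protein and marks the vesicle, had 89, 140 and 206 reads in d28-30, 63, 15 and 82 reads in d9-20, and 164, 82 and 120 reads in wt. It averaged 6.74 ± 2.07 CPM in d28-30, 2.60 ± 1.63 CPM in d9-20 and 5.93 ± 1.71 CPM in wt, with log2 fold changes of 0.19 ± 0.39 (adjusted p = 0.861) and -1.19 ± 0.43 (adjusted p = 0.622) in d28-30 and d9-20. Between the mutants the log2 fold change of Oc90 was 1.37 ± 0.42, in the direction of Coch. Without the low-count filter Oc90 was called in d28-30 against d9-20 (adjusted p = 0.00812) and in d9-20 against wt (adjusted p = 0.0305).

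Hmx2 and Hmx3, transcription factor genes of the vesicle, were at low levels. They averaged 1.14 and 1.41 CPM in d28-30, 1.37 and 1.74 CPM in d9-20 and 1.15 and 1.73 CPM in wt. Among the markers with the highest levels were Eya1, which acts in placode development, and Tbx1, which patterns the vesicle and the pharyngeal arches. Eya1 had log2 fold changes of 0.22 ± 0.12 (adjusted p = 0.611) in d28-30 and 0.16 ± 0.12 (adjusted p = 1) in d9-20. For Tbx1 they were 0.17 ± 0.13 (adjusted p = 0.638) in d28-30 and 0.53 ± 0.13 (adjusted p = 0.194) in d9-20. Tbx1 passed in d9-20 with the block (adjusted p = 0.0359), with DESeq2 and without the low-count filter.

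Genes for other matrix proteins of the inner ear differed widely in level. Of 11 members, 6 were tested, and Strc had no read in any library. Emilin2, a basilar membrane component, was the 1 member called, in d9-20 against wt, where 0.147% of all genes were called higher. It had 96.5, 79.5 and 91.0 CPM in d28-30, 121, 114 and 112 CPM in d9-20, and 75.2, 81.1 and 79.6 CPM in wt. It rose in d9-20, where all libraries lay above all of wt, by 0.56 ± 0.08 on the log2 scale (adjusted p = 0.0242). In d28-30, where Coch was highest, the log2 fold change of Emilin2 was 0.18 ± 0.08 (adjusted p = 0.610). The call in d9-20 was lost in 8 of 17 alternative settings, among them each left-out d9-20 or wt library and replicate 3 of d28-30 left out, with adjusted p up to 0.199.

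**Figure D4:**
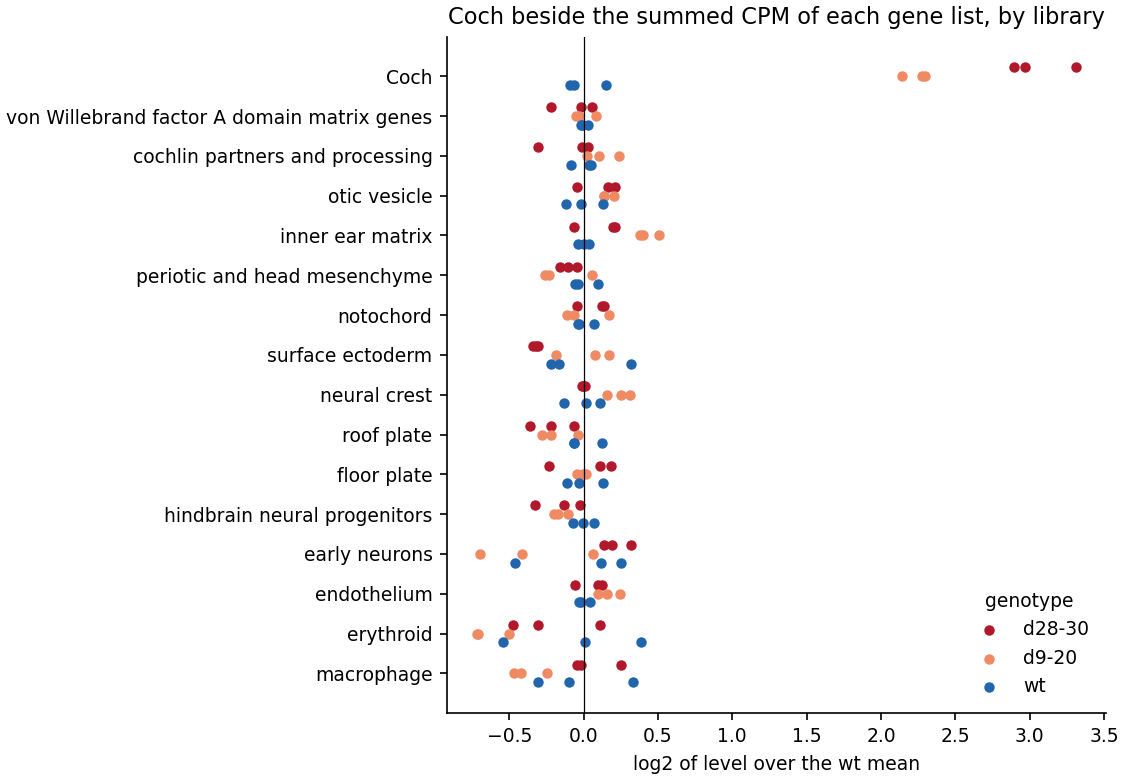
Log2 ratio to the wt mean (x axis) of the CPM of Coch and of the summed CPM of 15 gene lists (rows), with 1 point for each of the 9 libraries coloured by genotype. Coch is at more than 2 in all 6 mutant libraries, while the otic vesicle sums, 168 to 200.1 CPM in d28-30, 190.2 to 199.9 CPM in d9-20 and 160 to 189 CPM in wt, stay near 0.

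Markers of the other cell types that a dissected hindbrain can hold were read in the same way. Of the tested members of these 11 lists, only Msx2, a BMP-responsive homeobox gene of the roof plate, was called in the main edgeR fit. In that fit 0.0255% of all genes were called lower in d28-30 and 0.0191% in d9-20. Msx2 had 15.2, 17.5 and 18.6 CPM in d28-30, 16.4, 17.8 and 18.5 CPM in d9-20, and 26.1, 27.5 and 28.2 CPM in wt. Its mutant and wt libraries did not overlap, as for 12.8% of genes in d28-30 and 11.2% in d9-20, in either direction. It fell by 0.67 ± 0.10 on the log2 scale in d28-30 (adjusted p = 0.0226) and by 0.63 ± 0.10 in d9-20 (adjusted p = 0.0360). Each call was lost in 8 of 17 alternative settings, with adjusted p up to 0.126 in d28-30 and up to 0.215 in d9-20. Replicate 3 of d28-30, replicates 1 and 2 of d9-20 and each wt library ended both calls when left out, replicate 1 of d28-30 ended the call in d28-30, and replicate 3 of d9-20 ended the call in d9-20. The roof plate list as a whole had 11 tested members, and its median log2 fold change was -0.11 in d28-30 and -0.36 in d9-20. DESeq2, which called 95 genes in d28-30 and 122 in d9-20, called more members of these lists. Besides Msx2, it called Wnt1 lower in d28-30 (adjusted p = 9.01e-06) and Bmp6 and Col1a1 lower in both mutants. In d9-20 it also called Lmx1a (adjusted p = 0.0033), Col1a2 and Hbb-y lower and Foxc2 higher.

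Over all lists and neighbours together, 149 genes were tested, of which 1 was called in d28-30 against wt, 2 in d9-20 against wt and 0 between the mutants. Over all 15695 genes tested, the shares called were 0.159%, 0.166% and 0% in the same order. With the block, 8 of the 149 genes were called in d9-20 against wt, where 55 of all genes tested were called. Besides Emilin2, Msx2, Tbx1 and Col6a3, these were lower in d9-20: Col1a1 (log2 fold change -1.53, adjusted p = 0.0465 with the block), Col1a2 (-0.64, adjusted p = 0.038), the BMP ligand gene Bmp6 (-0.90, adjusted p = 0.0391) and the WNT agonist gene Rspo1 (-0.65, adjusted p = 0.0391). Without the d28-30 library that stood apart, 7 were called in d9-20 against wt, where 93 of all genes tested were called.

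Some summed marker levels also differed between genotypes. Periotic and head mesenchyme, led by Col3a1, Col1a2 and Pdgfra, summed to 889 to 959 CPM in d28-30, 826 to 1031 CPM in d9-20 and 950 to 1057 CPM in wt. Neural crest, led by Ets1, Sox10 and Tfap2b, summed to 357 to 362 CPM in d28-30, 401 to 447 CPM in d9-20 and 328 to 388 CPM in wt. Surface ectoderm, led by Cldn6, Cdh1 and Krt18, summed to 182 to 186 CPM in d28-30, 202 to 259 CPM in d9-20 and 198 to 287 CPM in wt. The crest sum was above wt in d9-20 only, and the ectoderm sum was below wt in d28-30 only. Neither sum had the order of d28-30 above d9-20 above wt that Coch had. A lack of overlap with wt, as in these sums and some below, is common. In either direction it held for 12.8% of single genes in d28-30 and 11.2% in d9-20.

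Endothelium, led by Kdr, Cdh5 and Egfl7, summed to 296 to 335 CPM in d28-30, 329 to 365 CPM in d9-20 and 302 to 317 CPM in wt. Hindbrain neural progenitors, led by Nes, Sox2 and Sox1, summed to 899.7 to 1110 CPM in d28-30, 982 to 1051 CPM in d9-20 and 1077 to 1187 CPM in wt. Early neurons, led by Tubb3, Elavl3 and Elavl4, summed to 637 to 719 CPM in d28-30, 356 to 604 CPM in d9-20 and 420.5 to 687 CPM in wt. The endothelial sum of d9-20 was above wt and its progenitor sum below, while the neuronal sums of both mutants overlapped wt. Between the mutants, the neuronal sums of d28-30 all lay above those of d9-20, an order that 8.19% of all genes had, Coch included. All 10 neuronal markers had a higher fitted level in d28-30 than in d9-20, with a median log2 fold change of 0.49, where that of all genes was 0.01 and that of Coch 0.83. None of them passed in that comparison, and Elavl4, Stmn2 and Neurod4 passed with DESeq2 and, with Dcx, without the low-count filter.

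Notochord markers, led by Shh, Foxa2 and Foxa1, floor plate markers, led by Ntn1, Spon1 and Lmx1b, and macrophage markers, led by Cd68, Csf1r and Cx3cr1, had a median log2 fold change of -0.06, -0.02 and 0.05 in d28-30 and of 0.03, -0.07 and -0.54 in d9-20, in that order of lists. Red blood cell genes, led by Hbb-y, Hbb-bh1 and Hba-x, had a median log2 fold change of -0.21 in d28-30 and -0.59 in d9-20, and their summed levels overlapped between each mutant and wt. Between the mutants, red blood cell sums were 4317 to 6464 CPM in d28-30 and 3650 to 4228 CPM in d9-20, with a median log2 fold change of 0.35 and all 11 members higher in d28-30. Macrophage sums were 13.0 to 15.9 CPM in d28-30 and 9.68 to 11.3 CPM in d9-20, with a median of 0.71 and 6 of 7 tested members higher. Cd68, the most abundant of them, had a log2 fold change of 0.03 ± 0.15 between the mutants. The others rested on few reads: Csf1r had 16 to 67 in the mutant libraries, and the rest had fewer. The red blood cell and macrophage sums therefore did not overlap between the mutants, and no member of either list passed there. Coch did not overlap either, like 16.8% of all genes in either direction and 8.19% with d28-30 higher. The part of any of these cell types in the level of Coch was not tested.

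The genes whose profile over the 9 libraries was most like that of Coch were named by their distance from it. The distance was the root mean square difference between log2 CPM profiles, each centred on its own mean, over 13907 genes with a mean of at least 1 CPM. The median gene was at 1.29, and the 10 nearest ran from 0.44 to 0.84. They included Stk32a, Pmaip1, Slc38a8, Grem1, Bcas1, Igsf23, Gng4, Nptx2 and Ampd3. All are genes with higher means in both mutants than in wt, which the measure favours, so their differences are given without a test.

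Stk32a, which encodes a serine/threonine kinase, was the nearest, at 0.44. It had 6.95, 7.40 and 6.94 CPM in d28-30, 2.98, 2.62 and 4.65 CPM in d9-20, and 1.05, 1.30 and 1.49 CPM in wt. Its libraries fell into the same order without overlap, d28-30 above d9-20 above wt.

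Pmaip1, whose product NOXA promotes apoptosis, was at 0.57 and averaged 11.9 ± 1.65 CPM in d28-30, 10.8 ± 1.11 CPM in d9-20 and 3.63 ± 1.05 CPM in wt. Grem1, which encodes a secreted BMP antagonist, averaged 18.02 ± 3.602 CPM in d28-30, 18.7 ± 3.16 CPM in d9-20 and 6.70 ± 1.67 CPM in wt. Nptx2, which encodes a neuronal pentraxin, averaged 18.1 ± 1.01 CPM in d28-30, 16.9 ± 2.63 CPM in d9-20 and 7.97 ± 0.511 CPM in wt. In these genes the mutants overlapped each other, so their likeness to Coch lay in the difference from wt and not in the step between the mutants. Slc38a8, an amino acid transporter gene, rested on few reads, with 51, 46 and 46 in d28-30, 19, 63 and 47 in d9-20, and 2, 5 and 4 in wt.

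**Figure D5:**
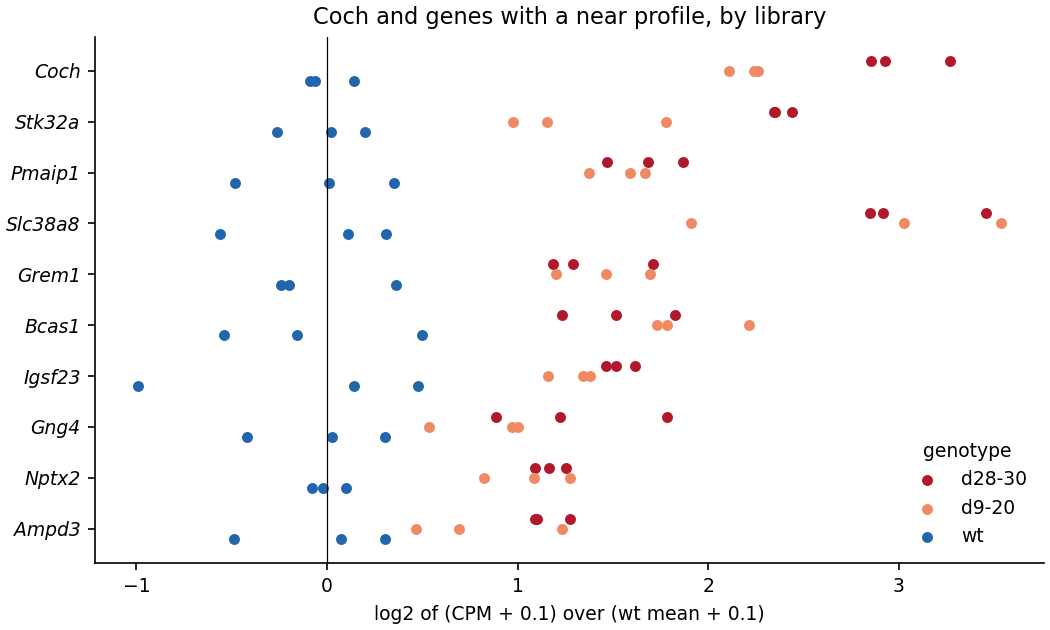
Log2 ratio to the wt mean, after adding 0.1 CPM to both (x axis), for Coch and 9 genes with a near profile (rows), with 1 point per library coloured by genotype. Coch and Stk32a show d28-30, d9-20 and wt as separate clusters, while in Pmaip1, Grem1 and Nptx2 the d28-30 and d9-20 points overlap.

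When profiles were divided by their SD, so that only shape counted, the order changed. The nearest genes were then Lgi2 at 0.15 SD units, Pla2g7 at 0.27, Stk32a at 0.28, Pmaip1 at 0.29 and Unc5d at 0.31, where the median gene was at 1.34. Of the 10 nearest by each measure, 3 were shared. Lgi2, which encodes a secreted leucine-rich repeat protein, averaged 44.8 ± 2.76 CPM in d28-30, 39.7 ± 3.11 CPM in d9-20 and 24.2 ± 0.990 CPM in wt. Pla2g7, which encodes the phospholipase that breaks down platelet-activating factor, averaged 18.1 ± 2.16 CPM in d28-30, 17.0 ± 0.786 CPM in d9-20 and 9.31 ± 1.01 CPM in wt. Unc5d, a netrin receptor gene, averaged 1.80 ± 0.230 CPM in d28-30, 1.62 ± 0.191 CPM in d9-20 and 1.10 ± 0.0776 CPM in wt. These 3 genes had the same direction in both mutants as Coch, at smaller folds.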

How the data were processed

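The authors deposited raw read counts by gene symbol in a single table. STAR 2.5.3a, featureCounts and limma on mm10 (GRCm38) are named in the submitters' processing notes. Libraries were stranded TruSeq, per the labels' protocols; for the counting, neither strand setting nor annotation is given in the sources used here. Columns were matched to samples by title.

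Counts were analysed with edgeR 4.0.16 in R 4.3.3. filterByExpr left 15695 genes, libraries were scaled with TMM, and 1 quasi-likelihood model with genotype as its only factor was fitted to all 9 libraries, with Benjamini-Hochberg adjustment over all tested genes and a threshold of 0.05. SE is the absolute log2 fold change over the root of F. RPKM is CPM per kilobase of GENCODE M21 exons, known for 97.09% of tested genes. Intervals came from SciPy 1.17.1. Alternatives used limma 3.58.1 (voom), DESeq2 1.42.0, other scalings and filters, a block, a Y-linked covariate and left-out libraries. The code was tested on simulated data.

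The titles number the libraries none, 1 and 2. Deviations of same-numbered libraries correlated at 0.554, 0.104 and 0.341 between d9-20 and wt, at 0.374, -0.289 and 0.246 between d28-30 and wt, and at 0.354, 0.184 and 0.218 between the mutants. By the rule that every pair exceeds 0.1, which 0.104 barely meets, the numbers pair d9-20 with wt and the mutants with each other, and not d28-30 with wt. The best correlated library of another genotype had a different number for replicate 1 of each genotype and replicate 2 of d28-30. For the other libraries it had the same number. These correlations do not establish what the numbers mark.

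Coch and the lists were chosen with earlier results of these data known. The genes named are Coch, Zfp423, neighbours, LCCL relatives, list members past the threshold (otherwise the 3 with the highest level) and the nearest profiles; some genes that meet this rule are not reported here.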

Additional observations from a re-analysis of the deposited data

How the results depend on the processing

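Coch kept its direction under all 17 alternatives, in the ranges given above. The number of genes called moved more. Without the low-count filter, calls were 98 in d28-30 against wt, 148 in d9-20 against wt and 133 between the mutants; with DESeq2 they were 95, 122 and 79 for the same comparisons. With only the 2 genotypes compared in the fit, calls were 12 in d28-30 and 40 in d9-20. With the replicate block they were 48 in d28-30, 55 in d9-20 and 2 between the mutants. With the Y-linked covariate, 13 were called in d9-20. With 1 library left out, calls ranged from 10 to 33 in d28-30, from 6 to 93 in d9-20 and from 0 to 4 between the mutants; the highest counts came without replicate 2 of d28-30 and the lowest counts against wt without replicate 3 of wt. Among listed genes and neighbours, the filter-free fit called 9 in d28-30, 19 in d9-20 and 11 between the mutants, and DESeq2 called 4, 10 and 6. The replicate block called 3 in d28-30 and 8 in d9-20, the fit of 2 genotypes 0 in d28-30, and the Y-linked covariate 0 in d9-20. With 1 library left out, these counts ranged from 0 to 2 in d28-30 and from 0 to 7 in d9-20. The cause of these shifts was not tested. Coch had only 57 to 69 reads per wt library, at which counting alone would give a coefficient of variation of 12.5%.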

Other observations

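For 33 genes all d28-30 libraries lay above all of d9-20, and those above all of wt. The genes given here were taken from among them with their values in view, and this order chose them. Wnt3, which encodes a secreted WNT ligand of the dorsal neural tube, averaged 23.0 ± 1.22 CPM in d28-30, 16.4 ± 4.34 CPM in d9-20 and 10.3 ± 1.09 CPM in wt. Tspear, a gene linked to human deafness and tooth and hair defects, averaged 2.91 ± 0.226 CPM in d28-30, 2.13 ± 0.361 CPM in d9-20 and 1.39 ± 0.347 CPM in wt. Trim36, which encodes a ubiquitin ligase, averaged 15.4 ± 1.504 CPM in d28-30, 10.9 ± 1.00 CPM in d9-20 and 8.02 ± 1.60 CPM in wt. Their log2 fold changes in d28-30 against wt were 1.16, 1.08 and 0.94, and in d9-20 against wt 0.68, 0.62 and 0.44, in the same gene order.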
